A study of Homo sapiens with 13 samples.

Results

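Pol II peaks that carried none of the histone marks of promoters and enhancers made up 6346 of the 26065 Pol II peaks (24.3%) listed for MDA-MB-231, an established human triple-negative breast cancer cell line. A peak counted as unmarked when it was under 10000 bp wide, shared not even 1 bp with a region of H3K4me1, H3K27ac or H3K4me3, and stayed clear of the 3 kb around every TSS used. These TSSs were those of the Ensembl canonical transcripts of protein-coding genes in GENCODE release 44 on hg19 (GRCh37). Membership was thus set by measured positions of Pol II and of the marks, and the absence of marks is a definition and not a finding. The study asked how Fra-1 and Fra-2, transcription factors of the AP-1 complex, act in these cells, and mapped chromatin marks and regulators around their sites. ChIP-seq was made in untreated cells in standard culture, without any genetic change, from 2 replicate libraries each for H3K4me1, H3K27ac, H3K4me3, Pol II and CTCF and from 1 library of pooled immunoprecipitations for p300/CBP. The same line served for all antibodies, so the data speak for a single tumour-derived model. Each list holds peak positions from merged replicates with no height or score. Such lists do not tell how deeply the libraries were sequenced, spread between replicates could not be measured, and the 95% intervals below cover counting error over peaks or genes only.

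As background, Pol II gathers at the starts of active genes, where the surrounding nucleosomes carry H3K4me3 and H3K27ac, and at active enhancers, which carry H3K4me1 and H3K27ac and often bind the acetyltransferases p300 and CBP. It also travels through gene bodies and continues beyond the site where the transcript is cleaved and polyadenylated, before it is released from DNA. ChIP detects the polymerase on DNA at any of these stages and does not tell moving from paused complexes. Pol II also transcribes most genes of spliceosomal and small nucleolar RNAs, while Pol III transcribes tRNAs and other short RNAs.

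Stretches of hg19 that stand for the main kinds of site are given first, as they show what lay beneath or beside unmarked peaks. At 3' ends of genes without a neighbour downstream, the last bases of the gene held a polyadenylation hexamer, here AATAAA, shown in capitals in 30 bases read on the strand of the gene. The NUCKS1 stretch lies at chr1:205681954-205681983 on the minus strand, that of VAPA at chr18:9959989-9960018 on the plus strand, and that of ZNF207 at chr17:30708872-30708901 on the plus strand.
NUCKS1: tcatatatAATAAAagataatgtttatact
VAPA: acgagaatcaaAATAAAgttttgcaaagta
ZNF207: caaagatgAATAAAatctttcatttattat
Either AATAAA or ATTAAA was found on the gene's strand in the last 40 bases of 7 of the 11 such genes examined, and in 70.2% of all 19819 protein-coding genes. A hexamer at this position was thus common in genes at large.

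A few unmarked peaks lay at a small RNA gene or a CTCF peak, and examples of both are shown to make these less common kinds of site concrete. The unmarked peak at SNORD3A, which encodes the U3 small nucleolar RNA used in ribosomal RNA processing, spanned 300 bp, and its bases at chr17:19091251-19091550 on the plus strand are printed with the annotated gene in capitals.
SNORD3A: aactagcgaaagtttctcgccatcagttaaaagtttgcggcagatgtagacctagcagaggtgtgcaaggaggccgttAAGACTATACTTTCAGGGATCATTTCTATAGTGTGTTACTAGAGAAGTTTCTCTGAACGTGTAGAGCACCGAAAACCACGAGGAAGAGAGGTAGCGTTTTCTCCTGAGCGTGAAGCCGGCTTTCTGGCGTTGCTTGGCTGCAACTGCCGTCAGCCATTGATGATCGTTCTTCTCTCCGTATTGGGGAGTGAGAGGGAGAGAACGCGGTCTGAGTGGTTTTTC
RNVU1-15, a variant U1 small nuclear RNA gene at chr1:148604908-148605072 on the minus strand, lay wholly inside an unmarked peak of 350 bp, and RNU1-1, a standard U1 gene at chr1:16840617-16840780 on the minus strand, lay at a Pol II peak outside the unmarked set. Both are printed for comparison.
RNVU1-15: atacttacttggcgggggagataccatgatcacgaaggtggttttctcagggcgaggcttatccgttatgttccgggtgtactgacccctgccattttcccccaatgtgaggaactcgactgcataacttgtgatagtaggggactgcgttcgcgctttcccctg
RNU1-1: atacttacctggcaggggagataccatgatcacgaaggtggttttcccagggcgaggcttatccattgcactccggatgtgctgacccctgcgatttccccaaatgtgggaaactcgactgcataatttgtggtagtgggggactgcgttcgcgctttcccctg
The 2 sequences were 165 and 164 bases long and 18 single-base edits apart. SNORD3A and RNVU1-15 were chosen for printing after their values had been seen.

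Where CTCF lay at an unmarked peak, a core of its motif could be read in some cases. An unmarked peak of each kind that held the core CCNNNAGGNGGC inside a CTCF peak is represented by 30 bases with the core in capitals. Each was the widest of its kind among the peaks searched, and the search did not cover all unmarked peaks. The first lies at the 3' ends of DDX55 and EIF2B1 (chr12:124103208-124103237, minus strand), the second inside PLCE1 (chr10:96080214-96080243, minus strand) and the last between genes (chr18:10560619-10560648, plus strand).
DDX55 and EIF2B1: gcttcatctCCTGCAGGGGGCactacacac
PLCE1: agataactgCCACCAGGTGGCgccaaaact
Intergenic: tttttctaaCCACCAGGTGGCgcagagcaa

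Unmarked peaks were narrow to moderately wide. Their widths ran from 150 to 9700 bp with a median of 750 bp, and they covered 7.75 Mb. The nearest marked region was of H3K4me1 for 5873 of them (92.5%), and the median gap to any mark was 4675 bp. For the middle 50% of the peaks this gap ran from 1850 to 10400 bp. At the edge of the rule, 46 unmarked peaks touched a marked region end to end without sharing a base, and 865 (13.6%) lay within 1000 bp of one. On the other side, 54 of the marked peaks shared only 50 bp with a mark, the width of 1 bin of the signal. The rule also left out 24 unmarked peaks of 10150 to 17050 bp and 271 that touched the region around a canonical TSS. Alternative start sites were not covered by the rule, and 793 unmarked peaks (12.5%) touched the 3 kb around the TSS of some other basic transcript of any gene type.

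To ask where Pol II lies in the absence of these marks, each peak was given 1 place in a fixed order, first a small RNA gene, then the 5 kb on either side of a protein-coding gene's 3' end, then a gene body, and otherwise intergenic. Peaks at gene 3' ends formed the largest class, with 3600 of the 6346 unmarked peaks, or 56.7% (95% Wilson interval 55.5% to 57.9%). Gene bodies held 2040 (32.1%, 31.0% to 33.3%), intergenic DNA 652 (10.3%, 9.55% to 11.05%) and small RNA genes 54 (0.851%, 0.653% to 1.11%). The unmarked peaks at 3' ends were also wider than those elsewhere in genes, with medians of 900 bp and 550 bp.

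The comparison set was the 9107 Pol II peaks of under 10 kb that lay outside the same TSS regions and did overlap a mark, called marked distal peaks here. Of these, 2099 (23.05%) lay at a 3' end, and the unmarked share was higher by 33.7 percentage points (95% Newcombe interval 32.2 to 35.2). Unmarked peaks were in turn less often intergenic, with a difference of -22.3 points (-23.5 to -21.1), and less often in the inner part of gene bodies, with one of -11.1 points (-12.7 to -9.60). The share at small RNA genes differed by -0.236 points, with an interval from -0.543 to 0.0859 that includes 0. Peaks are not replicates, so no p-value was computed for these differences. The marks are frequent near gene starts and at enhancers, so that the rule bears on these contrasts, and the values are a description. The 10 kb around 3' ends took up 6.11% of the determined bases of the genome, and the first 5 kb past them 3.29%, where 43.9% of unmarked, 17.6% of marked distal and 19.6% of promoter peaks were found. The share at 3' ends stood at 57.7% with the ends of canonical transcripts, an alternative chosen after seeing the data, and fell to 37.1% when the distance allowed was 2 kb.

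**Figure D1:**
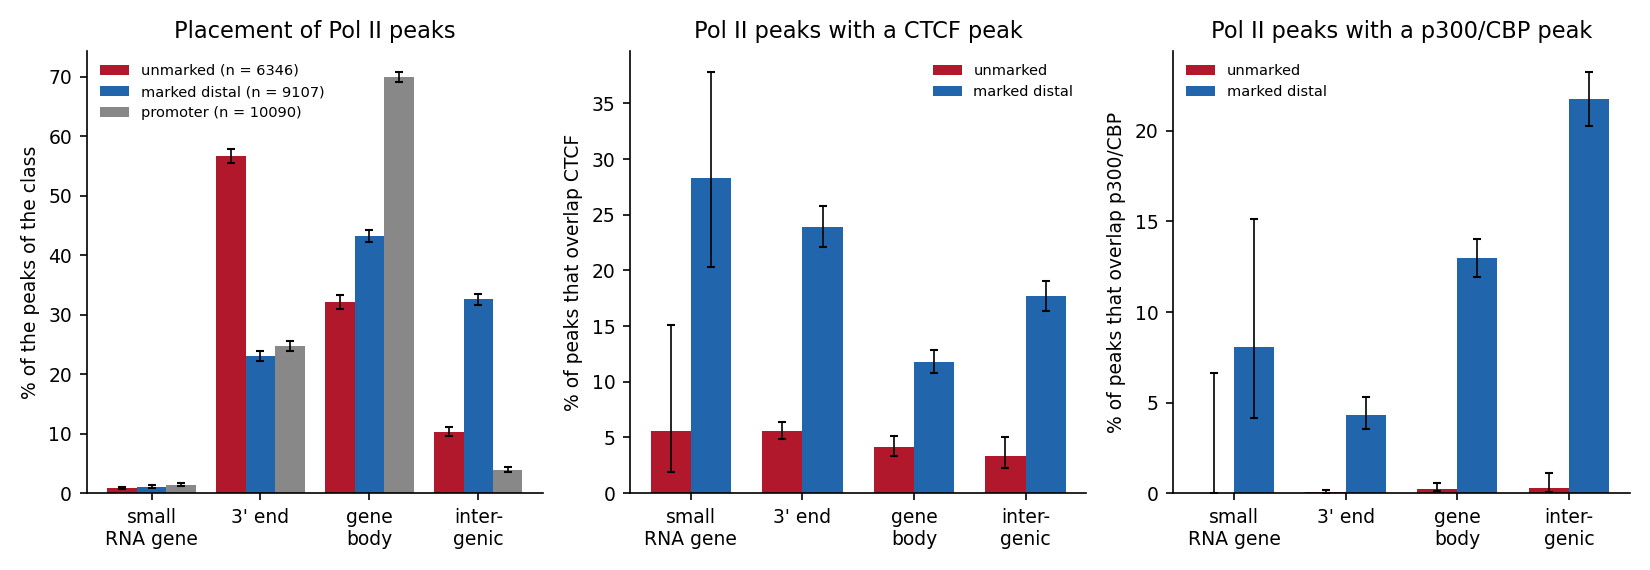
Left, the share of Pol II peaks in each place for unmarked peaks, marked distal peaks and promoter peaks (those that touch a canonical TSS region), in percent of the peaks of the class; middle and right, the percent of unmarked and marked distal peaks in each place that overlap a CTCF or a p300/CBP peak. Error bars are 95% Wilson intervals over peaks. The unmarked bar is the tallest at 3' ends, at 56.7%, and is below the marked distal bar for CTCF in every place.

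The centres of unmarked peaks lay close to the nearest 3' end. Their median distance was 4.19 kb, against 22.9 kb for marked distal peaks and 16.4 kb for promoter peaks. The rule on marks and TSSs bears on this contrast as well. Of all unmarked centres, 34.5% lay in the first 5 kb past an end and 20.4% in the last 5 kb before it. A further 8.38% lay between 5 and 10 kb past the end. Among the 3600 peaks assigned to 3' ends, 563 (15.6%) crossed an end, 1407 (39.1%) lay past it only, and 1626 (45.2%) lay inside a gene only, which includes peaks past the end of 1 gene and within another.

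Gene neighbourhoods can blur such positions, and so the profile was drawn for genes of at least 10 kb with no other protein-coding or lncRNA gene in the 20 kb past their 3' end. Of these, 2044 had both H3K27ac and Pol II at the canonical promoter and 1451 had neither. In the first group the share of genes with an unmarked peak rose from 0.587% at about 10 kb inside the gene to 2.94% just before the 3' end and reached its maximum of 7.93% at 1.375 kb past it. It stood above 50% of that maximum from 0.375 to 4.125 kb past the end and came down to 0.930% near 10 kb. In the genes with neither signal it did not exceed 0.207% at any position. All other Pol II peaks, which include marked ones, also had a maximum past the end of the first group of genes, at 1.125 kb, with 5.09% of genes. A position past the 3' end was therefore shared by Pol II peaks with and without marks.

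**Figure D2:**
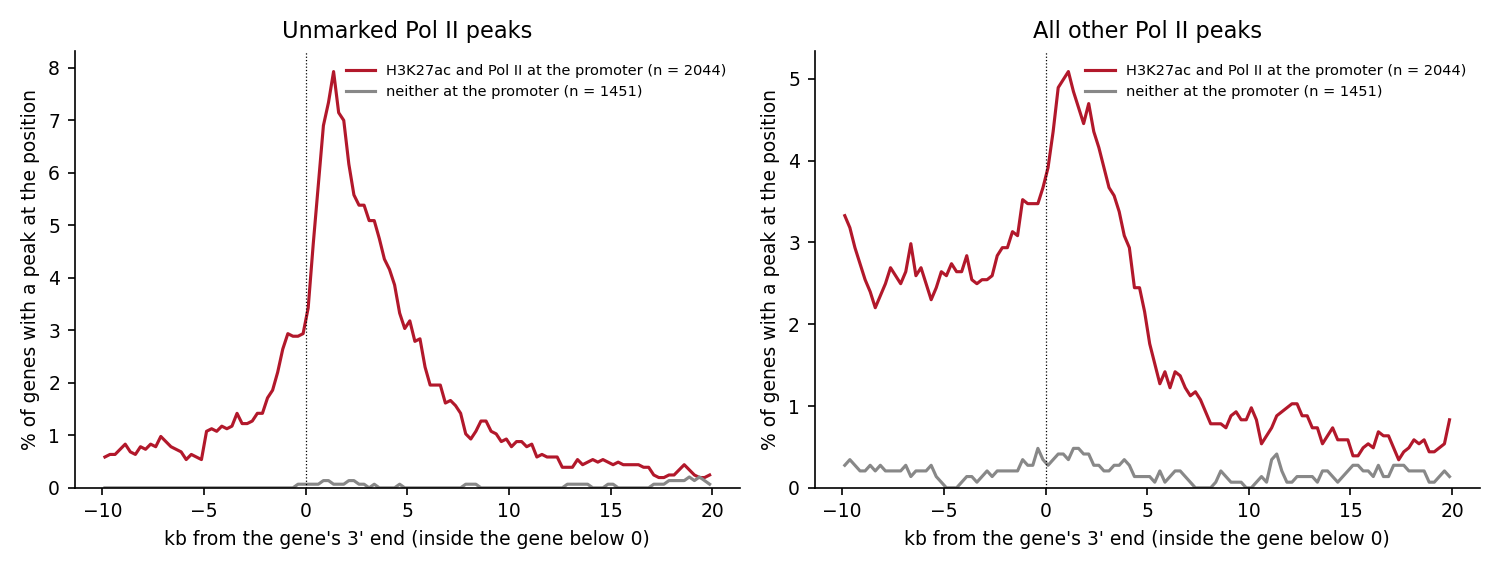
Percent of genes with an unmarked Pol II peak (left) or any other Pol II peak (right) at each position from 10 kb inside to 20 kb past the 3' end, in steps of 250 bp, for genes without a downstream neighbour. The red line, for 2044 genes with H3K27ac and Pol II at the promoter, peaks at 7.93% at 1.375 kb past the end on the left, and the grey line, for 1451 genes with neither, stays at or below 0.207%.

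Among these isolated genes with H3K27ac and Pol II at the promoter, 439 had an unmarked peak past the end. The farthest such peak ended at a median of 2.96 kb past the gene, with quartiles of 1.47 and 4.99 kb. The nearest such peak had begun inside the gene in 78 cases (17.8%). The farthest reached 10 kb in 23 cases (5.24%), and 111 genes (25.3%) had more than 1 peak there.

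Over all 19819 protein-coding genes on the autosomes and chromosome X, 2804 had an unmarked peak in the first 5 kb past the 3' end, the background of 14.1% for the gene lists below. With the gene body and the 5 kb on both sides of the 3' end counted, the number was 4582 genes, or 23.1%. The share past the end differed with the state of the gene's own promoter. It was 21.9% of the 11241 genes with H3K27ac and Pol II there (95% Wilson interval 21.1% to 22.6%), 16.0% of 362 genes with Pol II alone (12.6% to 20.2%), 8.09% of 977 genes with H3K27ac alone (6.54% to 9.96%) and 2.89% of 7239 genes with neither (2.53% to 3.30%). For any Pol II peak past the end, the shares in the same order were 51.6%, 53.04%, 20.98% and 10.6%. For genes with Pol II but no unmarked peak past the end, they were 29.8%, 37.02%, 12.9% and 7.72%. A difference by promoter state was thus not particular to unmarked peaks. Read the other way, H3K27ac was found at the canonical promoter of 4041 of the 4582 genes with an unmarked peak, or 88.2% (87.2% to 89.1%), against 61.6% of all genes. H3K4me3 was found at 88.6% of their promoters against 62.9%, and Pol II at 87.3% against 58.5%. Genes past whose end an unmarked peak lay had a median length of 27.4 kb, against 27.6 kb for all genes. By quintile of length among genes with both signals at the promoter, the share with such a peak was 20.2%, 27.6%, 24.8%, 20.9% and 15.8% from the shortest to the longest genes.

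The genes with most unmarked sequence past the 3' end had the whole 5 kb covered, as was the case for 33 genes, and 514 had at least 50% of it covered. In genome order the first 10 were TMED5, NUCKS1, CNIH4, WDR26, ARPC4-TTLL3, IFRD2, PDE12, ARF4, RPS3A and CTNNA1, and all 10 had H3K27ac, H3K4me3 and Pol II at the canonical promoter. NUCKS1, which encodes a nuclear DNA-binding phosphoprotein, was the only one of the 10 with no neighbour downstream. With positions counted in kb from the 3' end, and negative inside the gene, its peak ran from -0.151 to 6.05, further unmarked peaks followed, and the widest intergenic one nearby, of 6450 bp, was centred 13.9 kb past the gene. For ARF4, a small GTPase of the secretory pathway, the peak reached from -1.06 to 5.29 kb. The gene PDE12, which encodes a mitochondrial nuclease, ends close to that of ARF4 on the opposite strand, so both ends were counted with Pol II that position alone cannot assign. CNIH4 and WDR26 face each other in the same way, with peaks to 8.19 and 6.15 kb past their ends.

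The isolated genes had no protein-coding or lncRNA gene downstream within 20 kb, although small RNA entries were not excluded and the PUM2 peak also touched RNU7-113P. XRCC2, which acts in DNA repair, had an unmarked peak from -0.04 to 4.91 kb. The peak at LARP4B, which encodes an RNA-binding protein, ran from -1.03 to 4.87 kb, and that at VAPA, a membrane contact protein of the endoplasmic reticulum, from -1.07 to 4.83 kb. At HIF1AN, which encodes the asparagine hydroxylase that acts on HIF, it began 0.295 kb past the end and stopped at 7.25 kb. ZNF207, PUM2 and ANKRD11 likewise had peaks that began past the end, at 0.696, 0.601 and 0.187 kb, and stopped at 5.30, 6.001 and 5.49 kb. The starts thus lay on both sides of the 3' end, and the far edges between 4 and 8 kb beyond it. These isolated genes were picked for the bases covered past their ends, by the measure of the second part of the naming rule, after the rule's own genes had been seen to have neighbours.

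**Figure D3:**
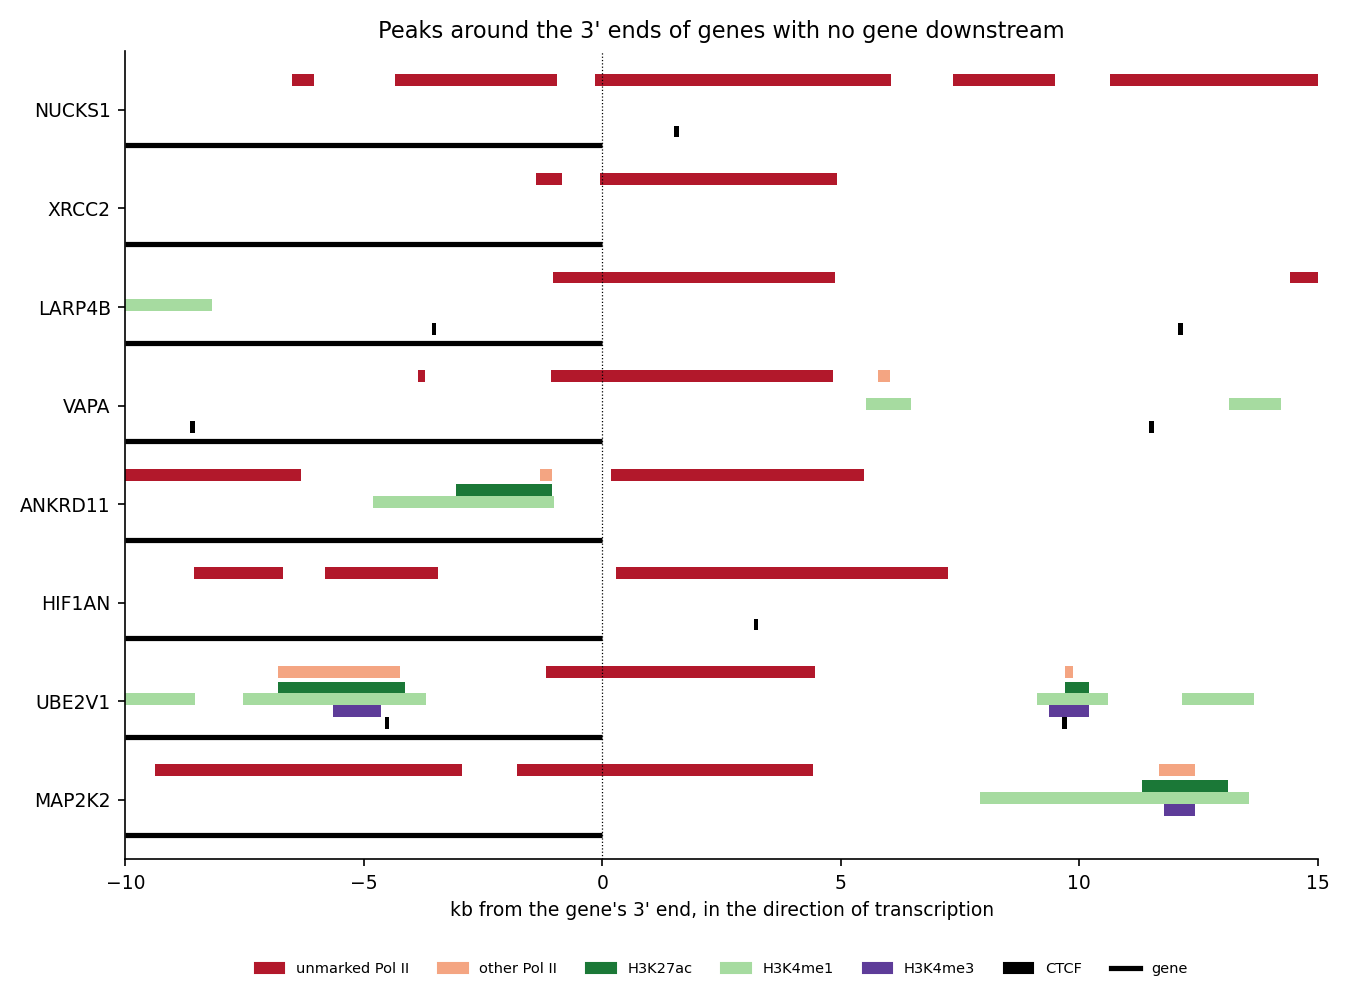
Peaks around the 3' ends of 8 isolated genes, drawn in the direction of transcription with the end at 0 and the x axis in kb; red bars are unmarked Pol II peaks, salmon bars other Pol II peaks, green and purple bars the marked regions, black ticks the centres of CTCF peaks and the black line the gene. In each gene a red bar covers most of the first 4 kb past the end, and no mark lies beneath it.

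Unmarked peaks within gene bodies differed in position from marked ones. The 2040 unmarked peaks placed there touched an exon of the canonical transcript in 33.3% of cases (31.3% to 35.4%), against 14.9% (13.9% to 16.1%) of the 3942 marked distal ones. They touched the first intron in 9.46% of cases against 30.7%. Where a peak lay in a single gene, its centre was at a median of 58.9% of the gene's length from the start, against 40.2% for marked distal peaks. With genes divided into 3 equal segments, the last segment held 39.8% of unmarked and 22.9% of marked distal peaks, and the first 20.5% and 42.5%. The marks themselves are frequent near gene starts, so that the rule bears on this contrast, and these values are a description.

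Most genes with unmarked peaks in the body held few of them. Of 2997 such genes, 1923 held 1 peak, 115 held 5 or more and 9 held 10 or more. DST, which encodes the cytoskeletal linker dystonin, held most, with 21 peaks, all of them beyond 62.1% of its 497 kb. Pol II covered 3.40% of DST as unmarked peaks, whose widths ran from 150 to 5050 bp with a median of 600 bp. ANKRD28, DLG1, ARHGEF28 and MYOF held 14 each. MYOF, which encodes the membrane-repair protein myoferlin, had the highest coverage of these, with 26100 bp or 14.8% of the gene. Its 14 peaks, with 1325 bp as their median width, lay between 37.9% and 99.7% of the gene's length, all but 1 of them beyond its midpoint. A further unmarked peak of 3800 bp began 0.635 kb past its end.

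ECT2, which encodes a guanine nucleotide exchange factor needed for cytokinesis, held 13 unmarked peaks that were mostly narrow, with a median of 150 bp and a maximum of 1350 bp. They began at 16.9% of the gene, which held only 3 other Pol II peaks. AOPEP, an aminopeptidase gene, held 12. All 10 peaks in BTD, which encodes biotinidase, also lie in ANKRD28 or just past its 3' end, since the annotated genes overlap. Position alone cannot assign these shared peaks to either BTD or ANKRD28. CMIP held 10 in the company of 50 other Pol II peaks, and its canonical promoter had H3K27ac and no Pol II peak. A Pol II peak did lie at 0.651% to 0.763% of the gene's length, outside the 3 kb around the TSS. AKNAD1, with 9, had neither signal at its promoter and overlaps other genes, so the 9 peaks cannot be given to it by position. All of the other 8 genes had both signals at the promoter.

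**Figure D4:**
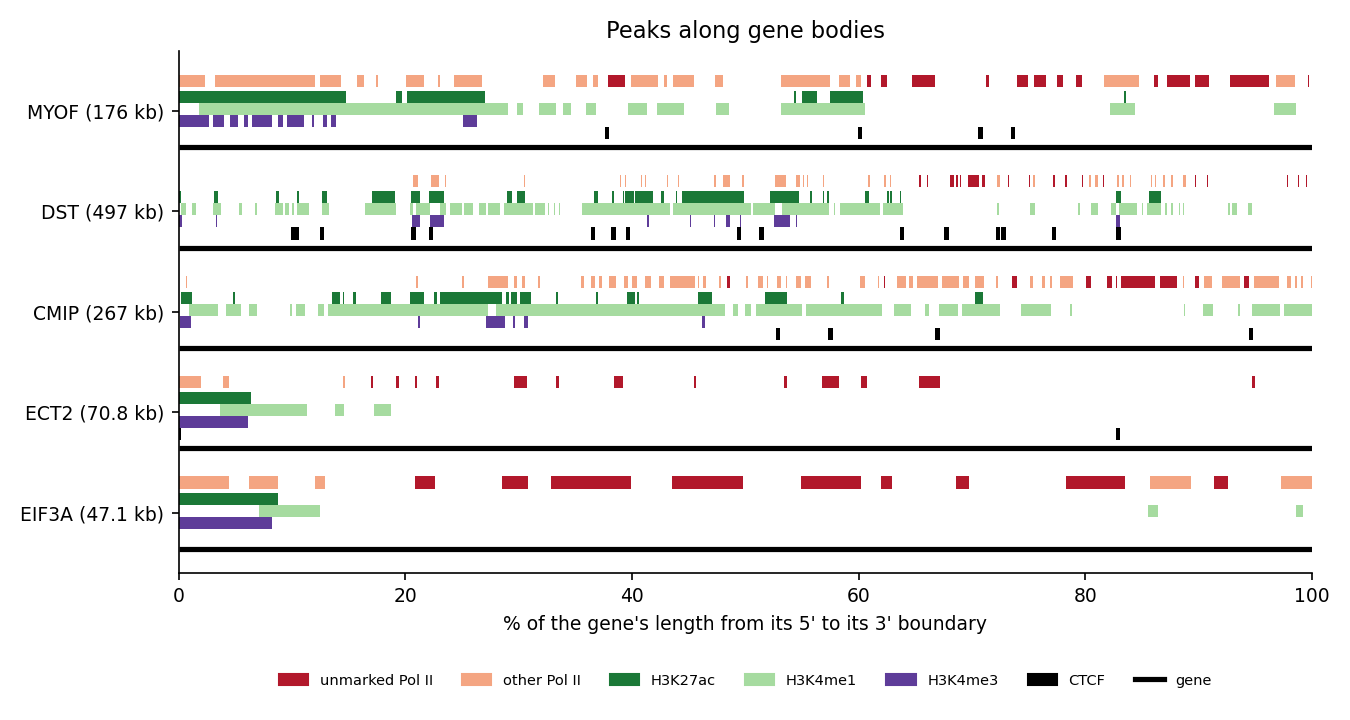
Peaks along 5 genes, with the x axis in percent of gene length from the 5' to the 3' boundary and the lengths given in kb beside the names; colours mark unmarked Pol II, other Pol II, the histone marks and CTCF (ticks at peak centres). The first unmarked peak starts at 16.9% of ECT2, 37.9% of MYOF and 62.1% of DST, and the others follow towards the 3' end.

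Unmarked peaks also came in runs along genes. Joined across gaps of up to 5 kb they formed 4376 runs, of which 1290 held more than 1 peak. These runs held 3260 of the 6346 peaks (51.4%), and the longest had 9. No gap was below 800 bp, which is the largest gap the authors joined when they called Pol II peaks, so the number of peaks counted in a gene depends on that distance.

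Among the widest unmarked peaks, that of 9700 bp in HSPA9, which encodes the mitochondrial chaperone mortalin and hosts SNORD63, came first. The widest at a 3' end without a small RNA spanned 9650 bp over CD302, a C-type lectin receptor gene, followed by peaks of 9450 bp at HSF1 and DGAT1, 9400 bp at RBMS2 and BAZ2A, 9250 bp at GLRA1 and 9200 bp at PIEZO1. CTCF was present at the peaks of 9450 and 9400 bp. The peak at PIEZO1 was centred 5.65 kb past the 3' end of CTU2, so position alone cannot assign it. In gene bodies the widest were 7900 bp in CMIP, 7550 bp in MYO19, 7500 and 6850 bp in AP1M1 and 6750 bp in ALK. The MYO19 peak was centred 11.7 kb past the 3' end of ZNHIT3. Likewise, the 7500 bp peak in AP1M1 was centred 13.5 kb past FAM32A and the ALK peak 17.1 kb past CLIP4. Position alone cannot assign the Pol II at these peaks. The gap to the nearest mark was 850 bp at RBMS2 and 13200 bp at CD302, so that wide unmarked peaks lay both beside and far from marked regions.

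The 54 unmarked peaks at small RNA genes touched 55 of 8529 annotated genes, made up of 24 microRNA, 12 snRNA, 11 snoRNA and 8 other RNA genes. Only 28 of the 55 were named genes, and the rest were unnamed entries or pseudogene copies. Protein-coding genes hosted 37 of the 55, and position alone cannot assign the Pol II to host or small RNA. Hosts with broad unmarked peaks over a named small RNA were TCP1 with SNORA20 (8050 bp), TNPO2 with SNORD41 (6500 bp), SREBF2 with MIR33A (5750 bp), SYTL3 with MIR3918 (5750 bp), ATG4D with MIR1238 (4700 bp), VWA5B2 with MIR1224 (4400 bp), POFUT1 with MIR1825 (4300 bp), PKD1 with MIR1225 (3500 bp), TBC1D17 with MIR4750 (3450 bp) and PLPPR3 with MIR3187 (3300 bp). SNORD23, in NOP53, and SNORA19, in EIF3A, lay under peaks of 3050 and 2950 bp. Peaks of 1050 to 3150 bp touched MIR4717, MIR4467, MIR4758, MIR4271, SNORA42, MIR4663 and MIR4726. MIR33A represses cholesterol export genes and is encoded in an intron of SREBF2, a master regulator of sterol synthesis.

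Small RNA genes with promoters of their own were a different case. Of 41 snRNA, U3 and related genes checked, 21 lay at a Pol II peak outside the unmarked set, 17 at none and 3 at an unmarked peak. The 3 were SNORD3A and the U1 variants RNVU1-15 and RNVU1-19, whose peaks were 300, 350 and 200 bp wide, and whose nearest marks lay 8350, 300 and 90600 bp away. All 3 lay outside protein-coding genes, and none near a 3' end. The authors used uniquely mapped reads only, and the part of this choice in the calls at repeated genes was not tested.

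Of the 652 intergenic unmarked peaks, 378 (58.0%, 54.2% to 61.7%) lay 5 to 20 kb past the 3' end of a protein-coding gene, against 21.4% (19.96% to 22.9%) of 2967 intergenic marked distal peaks. Of the 652, 357 (54.8%) lay at this distance past a gene with H3K27ac and Pol II at its promoter, against 15.6% of the 2967. In a class that overlaps the first, 188 of the 652 (28.8%) lay in lncRNA genes, a smaller share than the 40.8% of marked distal peaks. Neither downstream of a gene nor in a lncRNA gene or pseudogene were 126 (19.3%), against 43.0%. The rule on marks may bear on these contrasts, and the values are a description. The widest intergenic ones were 8600 bp on chromosome 7 with CTCF, 7400 bp at CAMSAP1-DT, 6800 bp at 12.5 kb past PAPOLA, which encodes a poly(A) polymerase, 6800 bp among noncoding genes of the HLA region, and the 6450 bp peak past NUCKS1.

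CTCF, which binds insulators and loop anchors, was rare at unmarked peaks. It was found at 311 of 6346 (4.90%, 4.396% to 5.46%), against 1519 marked distal peaks (16.7%), 2012 promoter peaks (19.94%) and 15.9% of all Pol II peaks. The difference from marked distal peaks was -11.8 points (95% Newcombe interval -12.7 to -10.8). The rule split the 2 sets by their marks, so it may bear on this contrast, and the values are a description. Wider peaks have more room for an overlap, and so the comparison was made in 4 strata of width. From the narrowest to the widest stratum, CTCF was found at 2.43%, 3.66%, 4.15% and 9.50% of unmarked peaks and at 10.4%, 12.8%, 18.1% and 26.6% of marked distal peaks. At 3' ends alone the shares were 5.58% and 23.9%, a difference of -18.3 points (-20.3 to -16.4). In gene bodies they were 4.17% and 11.8%, and between genes 3.37% and 17.7%, so the size of the gap differed between places. The core motif CCNNNAGGNGGC was present in 93 of the 320 CTCF peaks at unmarked Pol II peaks (29.1%, 24.4% to 34.3%) and in 20.4% of all CTCF peaks.

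p300/CBP was found at 9 unmarked peaks (0.142%, 0.0746% to 0.269%), against 13.8% of marked distal peaks, 1.08% of promoter peaks and 5.59% of all Pol II peaks. The difference from marked distal peaks was -13.6 points (-14.4 to -12.9) and lay between -17.6 and -13.7 points in the 3 other settings tried. Of these 9 peaks, 5 lay in gene bodies and 2 each at 3' ends and between genes. No unmarked peak had both CTCF and p300/CBP. The p300/CBP list comes from a single library and is shorter than the others, with 13984 peaks. Since p300/CBP often binds at enhancers that carry the marks, the rule bears on this contrast. Its values are a description.

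The sequence at the centre of unmarked peaks was less GC-rich than that of the other Pol II peaks. In the central 300 bp the median GC content was 49.3% (quartiles 43.7% and 55.0%), against 52.7% (46.0% and 59.7%) at marked distal and 64.7% at promoter peaks. The ratio of observed to expected CpG was 0.210, 0.297 and 0.782. The 6 short motifs were counted in the same 300 bp on both strands. AATAAA was found in 22.8% of unmarked, 18.8% of marked distal, 8.77% of promoter and 16.0% of all Pol II peaks. Within the unmarked set its share was 23.5% at 3' ends, 20.7% in gene bodies and 26.0% between genes. The AP-1 site TGACTCA, which Fra-1 dimers recognise, was found in 4.18% of unmarked peaks (3.71% to 4.70%), against 12.4% of marked distal, 3.29% of promoter and 6.68% of all peaks. Of the other motifs, TATAAA was found in 13.6%, 10.4%, 4.45% and 8.91%, the Pol III B box GTTCNANNC in 13.0%, 11.999%, 8.45% and 10.8%, the CTCF core in 2.08%, 3.27%, 5.37% and 3.799%, and CCAAT in 31.6%, 30.4%, 29.3% and 30.2%. GC content was lower in the classes where AATAAA and TATAAA were more frequent, and its part in these shares was not tested. The motifs were counted independently, and occurrences that share bases with another motif were kept. The paper places most Fra-1 and Fra-2 sites in candidate enhancers, which carry the marks. The rule thus bears on the AP-1 contrast and may bear on those of GC content, CpG and the other motifs. These values are a description.

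Gene lists that describe this cell type and its main housekeeping programmes were set against the 14.1% of all genes, and the 21.9% of genes with H3K27ac and Pol II at the promoter, with an unmarked peak in the first 5 kb past the end. Actin cytoskeleton genes had the highest share, 12 of 30 (40%, 24.6% to 57.7%). Any Pol II peak, with or without marks, lay there in 93.3% of them, against 51.6% of genes with H3K27ac and Pol II at the promoter. A high share in this list was thus not particular to unmarked peaks. Past the end of EZR, which links actin to the membrane, the whole 5 kb was covered, by the peak of 5750 bp that also lies in SYTL3 over MIR3918 and that position alone cannot assign. MYH9, the heavy chain of non-muscle myosin, had 3925 bp covered there and 6 peaks in its body, and ACTN1, an actin crosslinker, 3106 bp in 2 peaks. TPM4 and TLN1, which encode a tropomyosin and the integrin adaptor talin, each had 7 peaks in the body, over 18.8% and 16.2% of it, while VCL had 4 peaks in its body and none past the end.

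Glycolysis genes followed with 5 of 18 (27.8%, 12.5% to 50.9%), and any Pol II peak lay past the end in 94.4%. Past PFKL, a subunit of phosphofructokinase, 4641 bp were covered, past PGAM1 2249 bp, past LDHB 2000 bp, past PFKM 1700 bp and past PGK1 1100 bp. GPI had 3 peaks over 10.6% of its body. Translation factors had 6 of 23 (26.1%, 12.5% to 46.5%), and any Pol II peak in 78.3%. EIF3A, the scaffold of initiation factor 3, had 9 unmarked peaks of 450 to 3350 bp over 31.4% of its body. EIF3E, with 4600 bp in its body, and EIF2S1, EIF3B, EIF2S3 and EEF1A1 were the next by bases covered. Mesenchymal and matrix genes had 7 of 30 (23.3%, 11.8% to 40.9%), and any Pol II peak in 50%. Of these, TIMP2, a metalloprotease inhibitor, had 4650 bp covered past its end, ZEB1, a repressor of epithelial genes, 2200 bp, ITGA5 1550 bp and PLAUR 1146 bp, while ITGB1 and CAV1 had 5800 and 3600 bp in their bodies and none past the end.

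Shares under 14.1% were found for 4 lists of genes that mostly had H3K27ac and Pol II at the promoter. Of these, only the interval of the histone genes lay wholly below that value. Below the 21.9% of genes with both signals at the promoter lay the whole intervals of the ribosomal protein and histone genes. Both signals were present at 96.4% of ribosomal protein and 57.8% of histone gene promoters. The intervals of the AP-1 and immediate early genes included both backgrounds. Cytosolic ribosomal protein genes had an unmarked peak past the end in 7 of 83 cases (8.43%, 4.15% to 16.4%), although some Pol II peak, with or without marks, lay there in 84.3%, against 35.2% of all protein-coding genes and 51.6% of those with H3K27ac and Pol II at the promoter. RPS3A and RPL31 had 5000 and 4350 bp covered past the end, RPL39 2950 bp and RPL36A 1957 bp, while RPL30 and RPL34 had 3400 and 3200 bp in their bodies and none past the end. Immediate early genes had 3 of 25 (12%), with EGR2, KLF10 and MCL1, and any Pol II peak in 76.0%. AP-1 family genes had 1 of 14 (7.14%), MAFK with 350 bp, and any Pol II peak in 57.1%. Replication-dependent histone genes, whose transcripts are not polyadenylated, had 0 of 64, an upper limit of 5.66%, and any Pol II peak in 48.4%. In those lists the Pol II past the end was thus mostly in peaks that overlapped a mark, touched a TSS region or were 10 kb or wider. The rule left out every peak that touched the 3 kb around a TSS, which in short genes can reach past the 3' end. Gene length was not compared between the lists, so the rule may bear on these low shares. No cause of the low shares was tested.

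Luminal and olfactory genes had both signals at the promoter in 36.4% and 0% of cases. Luminal breast lineage genes had 1 of 22 (4.55%, 0.807% to 21.8%), which was XBP1, a transcription factor of the unfolded protein response, with a peak from -1.96 to 2.84 kb. None of 404 olfactory receptor genes had an unmarked peak past the end (0%, with an upper limit of 0.942%), and only OR1F1 had one in its body, of 300 bp. Of the genes whose promoters the study used as viewpoints for chromosome capture, chosen by their response to Fra-1 in this cell line, 33 were analysed here. They had 6 (18.2%, 8.61% to 34.4%), and as a list chosen in these cells they are no independent evidence. ASB1 had 4009 bp and TGFB2 3011 bp covered past the end, and ABTB2 8350 bp in its body, ahead of HEG1, ITPRID2 and TES. With 14 to 83 genes in most lists, the intervals of glycolysis, translation, mesenchymal and capture genes include both backgrounds.

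**Figure D5:**
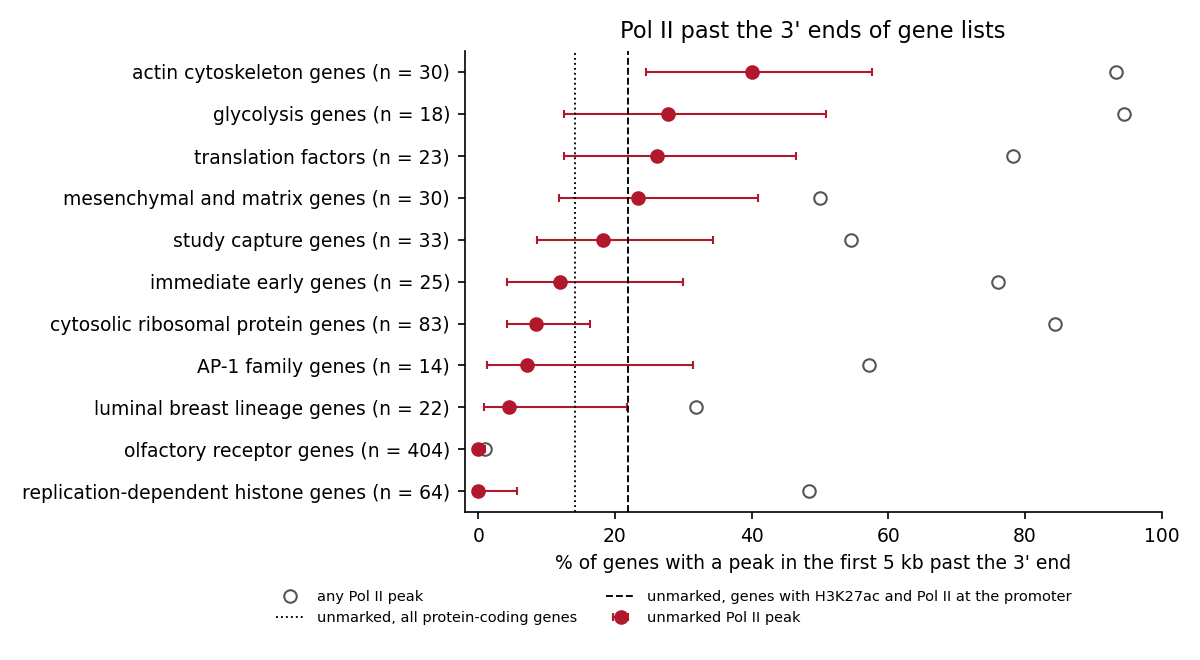
Percent of the genes of each list with an unmarked Pol II peak in the first 5 kb past the 3' end (filled, with 95% Wilson intervals) and with any Pol II peak there (open). The dotted and dashed lines mark the unmarked share over all protein-coding genes (14.1%) and over those with H3K27ac and Pol II at the promoter (21.9%). Actin cytoskeleton genes are highest at 40%, and histone and olfactory receptor genes are at 0.

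Across chromosomes, the density of unmarked peaks was highest on chromosome 19, with 620 peaks or 11.1 per Mb, and lowest on chromosome X, with 89 or 0.589 per Mb. Chromosome 19 is rich in genes, and as a share of the Pol II peaks of the chromosome the range was narrower, from 15.9% on X to 28.8% on chromosome 3, with 28.4% on 19. Per 100 protein-coding genes, chromosome 20 had most unmarked peaks (48.4) and X fewest (10.2). Near the largest undetermined stretches the shares were close to each other, as 6.85% of unmarked, 8.58% of marked distal and 6.24% of promoter peaks had a position under 5 Mb from the largest gap in the sequence of the same chromosome. Background subtraction was named for the lists of the histone marks and not for that of Pol II, and its part in these results was not tested.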

How the data were processed

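ChIP-seq of MDA-MB-231 cells was analysed from 6 deposited lists of peak positions in bp. The authors aligned reads to hg19 (BWA-backtrack in the methods, while the submitters' processing notes name Bowtie2), kept uniquely mapped reads, made a signal in 50-bp bins, merged replicates and called peaks by thresholding. The Pol II threshold was 50, with runs of at least 100 bp and gaps of up to 800 bp joined. By the names of the deposited lists, background had been subtracted from the scaled signal of p300/CBP and the histone marks, the Pol II signal had been scaled without subtraction, and CTCF had been left without both steps. No list gives a value per peak, so that depth is unknown. The 2 input libraries were not analysed here.

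Ends were taken as the first base after the peak. Overlap meant a shared 1 bp. Genes came from GENCODE release 44 on GRCh37, whose chromosome lengths were compared with the lists (20176 protein-coding genes for placement, 19819 on the autosomes and X for counts by gene). Small RNA genes were the miRNA, snRNA, snoRNA, scaRNA, scRNA, misc_RNA, rRNA, vault RNA, ribozyme and mitochondrial tRNA and rRNA entries. Python 3.11.15, NumPy 2.4.6, SciPy 1.17.1 and matplotlib 3.10.9 were used, and the overlap and distance functions gave 0 wrong answers when tested on 2400 simulated cases. Shares have 95% Wilson intervals and differences 95% Newcombe intervals, which treat peaks as independent and cover counting error only. Peaks are not replicates, and no p-value was computed.

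The members, the places and the 11 gene lists were chosen with earlier results of these data known. Named were the 10 genes with most unmarked peaks in the body, the 10 with most unmarked bases in the 5 kb past the 3' end (ties in genome order), the 5 widest peaks of each place, named small RNA genes by peak width up to 20, peaks with both CTCF and p300/CBP, and up to 6 genes of each list by bases covered. Alternatives changed the overlap with marks, the TSSs, the windows, the widths and the strata, and are given in the closing section.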

Additional observations from a re-analysis of the deposited data

How the results depend on the processing

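The number of unmarked peaks was 6346 and moved by over 1.5 times in 1 setting, to 2886, when only peaks of 850 bp or more, the median of all Pol II peaks, were kept to stand in for a stricter signal threshold. The share at 3' ends was 37.1% within 2 kb, 43.4% for the 5 kb downstream only, 54.4% by peak centre, 63.0% with the ends of all basic transcripts and 65.6% for wide peaks. The share in gene bodies was 35.1% with lncRNA genes included and 25.6% for wide peaks. The share at small RNA genes was 1.37% within 500 bp and 0.441% without unnamed and pseudogene copies. The intergenic share was 6.78% with lncRNA genes and pseudogenes counted as genic. H3K27ac at the promoters of genes with an unmarked peak was 89.6% with any basic transcript, 86.9% for peaks in the body only and, in a setting added after seeing the data, 97.2% for genes without a downstream neighbour. The deficits of CTCF and p300/CBP kept their sign in all settings run, each of which kept the same rule on marks. Of 31 alternatives, 17 stayed within the limits set and 14 moved. No paired analysis was possible because each list was called on merged replicates, which also meant that none of them could be left out. Depth per library, which sets how many weak peaks or marks pass a threshold, could not be assessed.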
